A study of Mus musculus with 32 samples.

Results

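The p53 target genes described here are Cdkn1a, Eda2r, Zmat3, Ccng1, Mdm2, Trp53inp1, Psrc1, Polk, Bax and Phlda3, a list of 10 genes selected on values measured in these lungs, as genes that read higher after hyperoxia than in air at postnatal day 5 (P5). Each was read from 1 probe set, that with the highest mean over all arrays. No probe set carries the name Bax in the annotation used here, so 9 of the 10 genes have values, of 18193 named genes in all. All 9 passed the filter on low values, as did 13345 genes in total, and Eda2r passed through the arrays on which it was high.

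Lung RNA came from C3H/HeN mice that were Gsr-WT or Gsr-KO, that is with or without glutathione reductase, the enzyme that returns oxidised glutathione to its reduced form. The unexposed groups were Gsr-WT and Gsr-KO lungs at embryonic day 19 (E19), with 4 mice each. Pups of both genotypes spent the days from birth to P5 with their dams in room air or in 100% oxygen, and lungs were examined when the exposure ended or in adults of postnatal day 56 (P56), which makes 8 further groups of 3 mice. Each of the 32 arrays was made from part of the lung of 1 mouse, and litter is not given in the labels used here.

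p53 is a transcription factor that is kept low by Mdm2-driven degradation and builds up after DNA damage and other stresses, among them high oxygen. Its targets halt the cell cycle, repair or bypass damaged DNA, start apoptosis and, through Mdm2 and others, turn p53 itself down again. It binds pairs of a short decamer, called half-sites, in the control regions of its targets. In the lung of animals exposed to high oxygen, Cdkn1a is a well known part of the response.

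In build GRCm38.p6 the genes lie apart from each other, with Cdkn1a on chromosome 17 from 29090979 to 29100722, Ccng1 on chromosome 11 from 40748552 to 40755309, Mdm2 on chromosome 10 from 117688875 to 117710758 and Eda2r on the X chromosome from 97333837 to 97377234. Zmat3 (from 32334792 to 32365665) and Psrc1 (from 108383804 to 108388231) share chromosome 3. Trp53inp1 is on chromosome 4, Polk on 13, Bax on 7 and Phlda3 on 1. The sequences before 2 of the start sites are shown because they hold a match to the p53 half-site consensus, the decamer described above. They were read 5′ to 3′ from the RefSeq promoter windows of build GRCm38.p6, which gave windows for 8 of the 10 genes and none for Zmat3 and Trp53inp1. The window of the upstream Cdkn1a start on chromosome 17 (plus strand, chr17:29090729-29090978) is shown, and that start lies 2790 bases before the other annotated Cdkn1a start. The Ccng1 window (minus strand, chr11:40755287-40755536) ends at the Ccng1 start. Both are given up to the base before the start, and capitals mark the pair of half-sites with the fewest mismatches.
Cdkn1a: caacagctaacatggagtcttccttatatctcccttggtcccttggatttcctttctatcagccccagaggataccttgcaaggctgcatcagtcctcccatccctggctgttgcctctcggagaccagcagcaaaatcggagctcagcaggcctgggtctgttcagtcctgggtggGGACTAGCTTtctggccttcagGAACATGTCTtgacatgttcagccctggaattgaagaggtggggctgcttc
Ccng1: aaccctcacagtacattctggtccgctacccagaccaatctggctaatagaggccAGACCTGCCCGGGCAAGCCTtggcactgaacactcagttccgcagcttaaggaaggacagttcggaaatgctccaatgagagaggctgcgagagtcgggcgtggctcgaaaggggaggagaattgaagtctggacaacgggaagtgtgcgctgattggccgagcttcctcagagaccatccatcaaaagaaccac
The capitals in Cdkn1a mark a pair with 0 mismatches, 12 bases apart, and the second of the pair is also the first of the adjoining pair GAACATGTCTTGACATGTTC, which has 1 mismatch. The Ccng1 pair adjoins without a gap and has 1 mismatch. Bax, on chromosome 7, had a pair with 2 mismatches, TGACAAGCATatcccAGGCAAGCTT, and Mdm2 and Polk had a single exact half-site each, GAACTTGCCT and GAACTAGCCT. In windows of 300 bases, searched on both strands, an exact half-site stood in 5 of the 11 windows of these genes against 8.36% of all 32851 windows, and a pair with at most 2 mismatches and at most 13 bases between the decamers stood in 3 of 11 against 4.09%. A match describes the letters only, and the windows of Eda2r, Psrc1 and Phlda3 held none.

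Before the values, 2 arrays have to be named because they go against their exposure labels in these genes. The array of WT P5 air replicate 3 read above both other WT P5 air arrays in 9 of the 9 genes and at or above the lowest WT hyperoxia array in 9 of 9, where the shares over all 13345 genes were 38.7% and 73.8%. The array of KO P5 hyperoxia replicate 1 read below both other KO hyperoxia arrays in 9 of 9, against 39.6% of all genes. It read at or below the highest KO air array in 6 of 9 (66.7%), a smaller share than the 80.4% of all genes. In Eda2r, Zmat3 and Phlda3 it lay above every KO air array. Over all tested genes WT air replicate 3 correlated at 0.986 with its nearest WT hyperoxia array and at 0.969 and 0.981 with its own group. KO hyperoxia replicate 1 correlated at most at 0.982 with a KO air array and at 0.978 and 0.982 with its own group. Both carried the Gsr signal of their labelled genotype, which lay between 498 and 1541 on the 16 WT arrays and between 138 and 257 on the 16 KO arrays. They are called by their labels throughout, and P5 differences are given with and without them. They were singled out by their values in these genes. Differences, intervals and calls without them are therefore descriptions and not tests, at every age. KO P5 air replicate 1 also stood apart and was kept: it correlated at 0.953 and 0.961 with its own group and at 0.976 with KO E19 replicate 2, and it gave the highest KO air value of Cdkn1a.

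The 13 lung markers were all measured, and their mean log2 level, centred over the 32 arrays, ranged from -0.19 to 0.04 on the 12 P5 arrays. Markers of other tissues differed with group at P5. The level of the 10 liver markers was 4.17, 3.17 and 1.99 on the WT air arrays and between -0.21 and 1.10 on the WT hyperoxia arrays. Striated muscle and squamous epithelium markers stood at 2.24 to 2.54 and at 1.76 to 2.21 on the KO hyperoxia arrays, against -0.93 to 0.58 and -0.57 to -0.12 on the KO air arrays. KO hyperoxia replicate 1 shared those high levels (2.54 and 1.90) with the other 2 arrays of its group while its p53 target genes were low. The summed signal of the liver markers ran from 14550 to 54080 units in WT air and from 2490 to 7540 in WT hyperoxia. In bulk lung RNA, fewer cells of a type and less RNA per cell cannot be told apart.

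**Figure D1:**
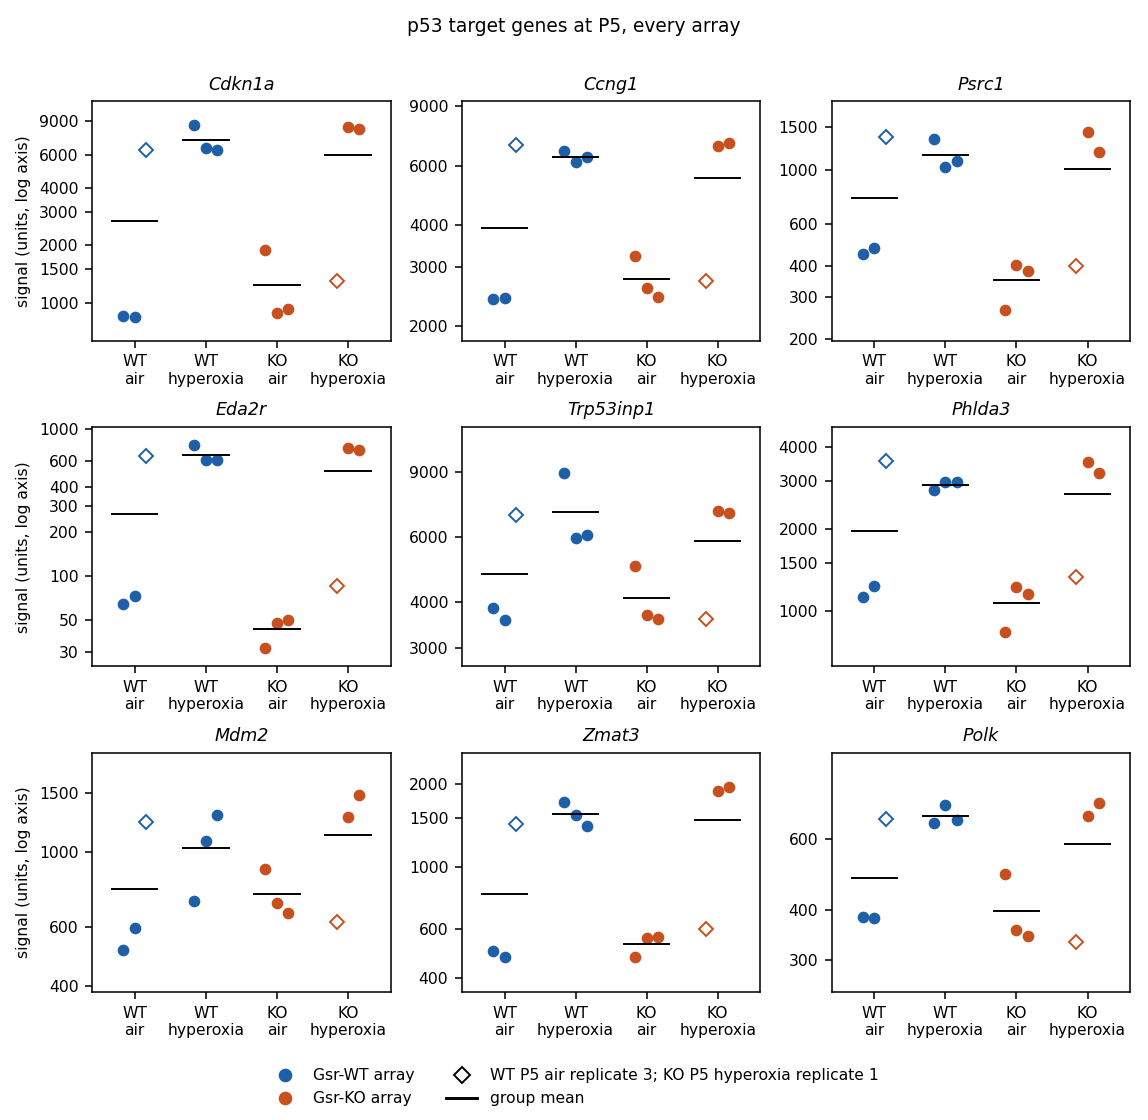
Signal of the 9 measured p53 target genes on each of the 12 P5 arrays, in units on a log axis, by genotype and exposure; filled points are arrays, open diamonds are WT P5 air replicate 3 and KO P5 hyperoxia replicate 1, and bars are group means. In each panel the WT air diamond lies among or near the hyperoxia arrays and the KO hyperoxia diamond lies with or near the KO air arrays, as for Cdkn1a at 6352 and 1296.

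The P5 values chose these genes, so they are given as a description and without a test. They are deposited signals in units, and a difference is hyperoxia minus air on the log2 scale after an offset of 26.3 units was added. The genes of cell cycle arrest come first. Cdkn1a, which encodes the cyclin-dependent kinase inhibitor p21, read 848, 840 and 6352 on the WT air arrays and 8589, 6471 and 6329 on the WT hyperoxia arrays. In KO it read 1881, 883 and 924 in air and 1296, 8384 and 8155 in hyperoxia. Leaving aside KO hyperoxia replicate 1 and WT air replicate 3, the lowest hyperoxia array (6329) stood well above the highest air array (1881). The difference was 2.07 (SE 0.55) in WT and 1.93 (SE 0.55) in KO, and 3.03 (SE 0.26) and 2.81 (SE 0.26) without the 2 arrays, or 8.14-fold and 7.02-fold. A second Cdkn1a probe set gave 1.87 and 1.93 over all arrays.

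Ccng1, which encodes cyclin G1, a partner of protein phosphatase 2A that acts on Mdm2, read 2406, 2411 and 6903 in WT air and 6635, 6140 and 6348 in WT hyperoxia. Its KO values were 3235, 2593 and 2432 in air and 2717, 6869 and 6991 in hyperoxia. The difference of 0.89 in both genotypes became 1.39 in WT and 1.33 in KO without the 2 arrays, and 2 further probe sets of the gene gave 0.73 to 1.04. Psrc1, which encodes a microtubule-binding protein, read 448, 474 and 1366 in WT air against 1343, 1028 and 1090 in WT hyperoxia. In KO it read 263, 404 and 382 in air against 401, 1440 and 1180. In WT the highest Psrc1 value was thus on an array labelled air. Its difference was 0.76 in WT and 1.30 in KO, and 1.27 and 1.84 without the 2 arrays, and a second, dimmer probe set gave 0.66 and 1.04.

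Among the genes that act back on p53 or on survival signals, Mdm2, the ubiquitin ligase that degrades p53, had overlapping groups. It read 512, 597 and 1233 in WT air and 719, 1078 and 1293 in WT hyperoxia. The KO arrays read 893, 707 and 661 in air and 620, 1272 and 1486 in hyperoxia. WT hyperoxia replicate 1, at 719, lay below KO air replicate 1, at 893. The difference was 0.45 (SE 0.34) and 0.48 (SE 0.34), and without the 2 arrays 0.83 (SE 0.31) and 0.86 (SE 0.31). Phlda3, which restrains Akt at the membrane, read 1124, 1229 and 3562 in WT air and 2777, 2983 and 2986 in WT hyperoxia. In KO the readings were 832, 1219 and 1156 in air and 1329, 3527 and 3214 in hyperoxia. Its difference was 0.76 in WT and 1.21 in KO, and 1.29 and 1.65 without the 2 arrays.

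Eda2r, a death-domain-free receptor of the tumour necrosis factor receptor family, read 64.3, 72.5 and 657 in WT air and 773, 612 and 613 in WT hyperoxia, and 32.1, 47.9 and 50.2 in KO air and 84.4, 738 and 723 in KO hyperoxia. Over the 32 arrays 6 lay above 100.4 units, the median of all values, and these were the 5 hyperoxia arrays other than KO replicate 1 and WT air replicate 3. On the low arrays the offset has a large share in the size of the difference, so a bound is given. With values below 100.4 set to 100.4 it was at least 1.63 in WT and, with KO hyperoxia replicate 1 itself set to that level, 1.72 in KO. Without the 2 arrays it was at least 2.44 and at least 2.58. Trp53inp1, a stress protein that promotes p53 activity and autophagy, read 3850, 3562 and 6911 in WT air and 8972, 5961 and 6099 in WT hyperoxia. Its KO values were 5007, 3693 and 3604 in air and 3588, 7064 and 6969 in hyperoxia. The difference was 0.59 in WT and 0.47 in KO, and 0.89 and 0.79 without the 2 arrays.

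Zmat3, an RNA-binding zinc finger protein, read 502, 478 and 1430 in WT air and 1714, 1548 and 1405 in WT hyperoxia. In KO it read 475, 560 and 560 in air and 603, 1891 and 1939 in hyperoxia. KO hyperoxia replicate 1 was thus above each KO air array by a small margin. The difference was 1.11 and 1.26, and 1.61 and 1.80 without the 2 arrays. Polk, a DNA polymerase that copies past damaged bases, read 385, 381 and 674 in WT air and 660, 729 and 671 in WT hyperoxia. The KO readings were 490, 356 and 345 in air and 332, 685 and 740 in hyperoxia. Its difference was 0.54 and 0.47, and 0.80 and 0.82 without the 2 arrays.

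Over the 9 genes the median difference was 0.76 in WT and 1.21 in KO, with 9 of 9 positive in both, where the median over all genes tested was -0.02 and -0.01. Without the 2 arrays the medians were 1.29 and 1.65, and the SE of a gene fell from between 0.21 and 0.55 to between 0.14 and 0.48. With the liver marker level of each array as a covariate the differences were 0.40 to 1.66 in WT and 0.42 to 2.38 in KO. In WT the value of Phlda3 went from 0.76 to 0.40, that of Cdkn1a from 2.07 to 1.66 and that of Trp53inp1 from 0.59 to 0.61. The part of the muscle and squamous markers in the KO differences was not tested. An 18S RNA control probe set also differed, at 511.8, 229 and 1867 in KO air and 3542, 5882 and 15690 in KO hyperoxia. On the WT P5 arrays it read from 16420 to 19030. Its part in the KO differences and in those between genotypes was not tested. The response in KO minus that in WT ran from -0.14 to 0.61 over the genes, and from -0.21 to 0.59 without the 2 arrays, where the upper end is Eda2r, whose air values lie under 100.4 units. Between genotypes within one exposure, KO minus WT at P5 without the 2 arrays ran from -0.45 (Eda2r) to 0.44 (Cdkn1a) in air and from 0.03 (Trp53inp1) to 0.45 (Mdm2) in hyperoxia.

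**Figure D2:**
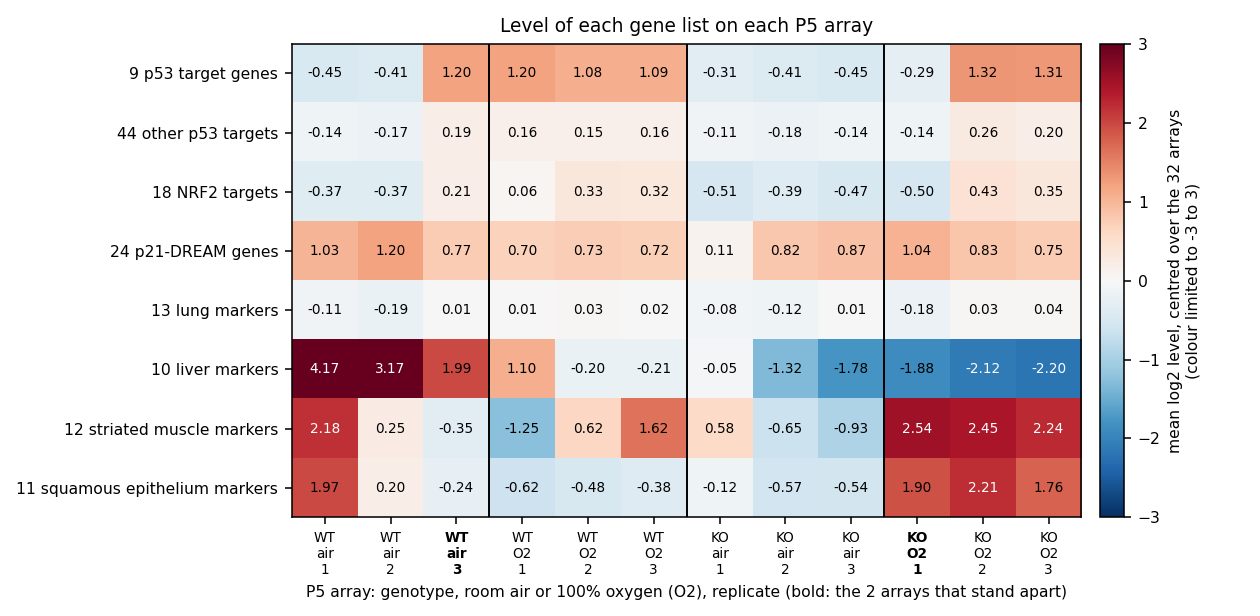
Mean log2 level of gene lists on each P5 array, each gene centred on its mean over the 32 arrays; columns are arrays, rows are lists, numbers are the levels and bold column labels mark the 2 arrays that stand apart. The p53 target genes and NRF2 targets on WT air replicate 3 stand at 1.20 and 0.21, with the hyperoxia arrays, while its liver markers, at 1.99, lie between the 2 WT groups.

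A list of 50 other p53 targets, which leaves out the 10 above and of which 44 were measured, shows more of the pathway at P5. It was drawn up with results of these data known, so its counts are a description of the pathway. With all arrays 0 of 44 passed the limma test (adjusted p under 0.05 over all genes) in WT, where 0.00749% of all genes passed, and 0 of 44 in KO, where 0.337% passed. With array weights, which give less weight to arrays that deviate, 20 passed in WT and 23 in KO, while 3223 and 2680 of all genes did. At an unadjusted p under 0.05 there were 7 of 44 in WT, all higher, where 3.09% of all genes had one, and 9 in KO, 8 of them higher, where 5.85% had one. The list median was 0.09 in WT and 0.22 in KO, with 30 and 28 of 44 positive, against 6171 and 6461 of the 13345 genes.

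On the offset log2 scale, Pvt1, a long noncoding RNA, Ephx1, microsomal epoxide hydrolase, and Sesn2, a stress sensor that restrains mTOR, had the highest values among other targets and regulators in WT, at 1.40, 0.99 and 0.98. The lowest there were Triap1 (-0.36) and Trp63, a p53 relative of basal epithelium that is in the lists of regulators and of squamous markers (-1.0). In KO the highest were Trp63 (1.52), Pvt1 (1.26) and Ephx1 (1.12), and the lowest Ptp4a3 (-0.39) and Trp53i11 (-0.62). Pvt1 and Trp63 were dim, and their sizes and ranks rest on values under 100.4 units. Pvt1 exceeded that level on 1 WT air array and on 0 KO air arrays, and with lower values set to it the difference was 0.61 in WT and 0.35 in KO. Trp63 exceeded it in WT on 1 air array alone, and in KO on 0 air arrays and 3 hyperoxia arrays, so that only its KO difference, at least 0.54, is read here. The squamous markers had a median of 2.08 in KO, where 5 of 11 passed as higher with all arrays, while Trp63 did not pass (adjusted p = 0.224).

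Without the 2 arrays 2 of the 44 passed in WT, both higher, where 0.127% of all genes passed, and 5 in KO, all higher, where 0.689% passed (limma, adjusted p under 0.05). Ephx1 differed by 1.62 in WT and 1.68 in KO, where with all arrays the values were 0.99 (adjusted p = 1) and 1.12 (adjusted p = 0.412). It read 989, 1013 and 3806 in WT air and 2915, 3350 and 3152 in WT hyperoxia, and 1190, 1313 and 1179 in KO air and 1235, 3860 and 4114 in KO hyperoxia, so that it shared the pattern of both arrays named above. Dglucy, a mitochondrial enzyme of D-glutamate, differed by 1.14 in WT and 0.99 in KO, and Aen, a nuclease of apoptosis, by 1.37 in KO. Slc19a2, a thiamine transporter, differed by 1.16 in KO, and Lif, a cytokine of the interleukin 6 family whose KO air values lay under 100.4 units, by at least 0.62. Of the 23 measured p53 regulators 0 passed in either genotype, with or without the 2 arrays, and 1 had an unadjusted p under 0.05 in each case.

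NRF2 targets, the antioxidant genes switched on by oxidative stress, were read on the same arrays. Their mean level was -0.37, -0.37 and 0.21 on the WT air arrays and 0.06, 0.33 and 0.32 on the WT hyperoxia arrays, and -0.51, -0.39 and -0.47 in KO air and -0.50, 0.43 and 0.35 in KO hyperoxia. With all arrays 0 of the 18 measured passed in WT and in KO, with 5 and 8 at an unadjusted p under 0.05, all higher, beside the same 3.09% and 5.85% of all genes. Without the 2 arrays 0.127% of all genes passed in WT and 0.689% in KO. Of the NRF2 targets 4 passed in each genotype, in WT with an adjusted p of up to 0.0461 (limma). These were Ephx1, which is in both lists, Slc7a11, the cystine transporter, whose values lay under 100.4 units on all air arrays and on all KO arrays at P5, Hmox1, heme oxygenase 1 (1.39 in WT and 1.29 in KO), and Gclc, the catalytic subunit of glutathione synthesis (1.18 and 1.38).

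Genes that p21 represses through the DREAM complex, which act in DNA replication and mitosis, did not pass the limma test at P5 in either genotype (0 of 24, with 1 at an unadjusted p under 0.05 in WT and 0 in KO). Their median was -0.29 in WT, with 24 of 24 negative, and 0.29 in KO, with 21 of 24 positive, and it kept these signs under both other scalings. By array their level was 1.03, 1.20 and 0.77 in WT air and 0.70 to 0.73 in WT hyperoxia, and 0.11, 0.82 and 0.87 in KO air and 1.04, 0.83 and 0.75 in KO hyperoxia. WT air replicate 3 lay closer to the hyperoxia arrays than its group did. In KO the lowest array was air replicate 1 and the highest hyperoxia replicate 1, and the median was 0.16 without the 2 arrays that stand apart. A test of the difference between genotypes was not made.

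**Figure D3:**
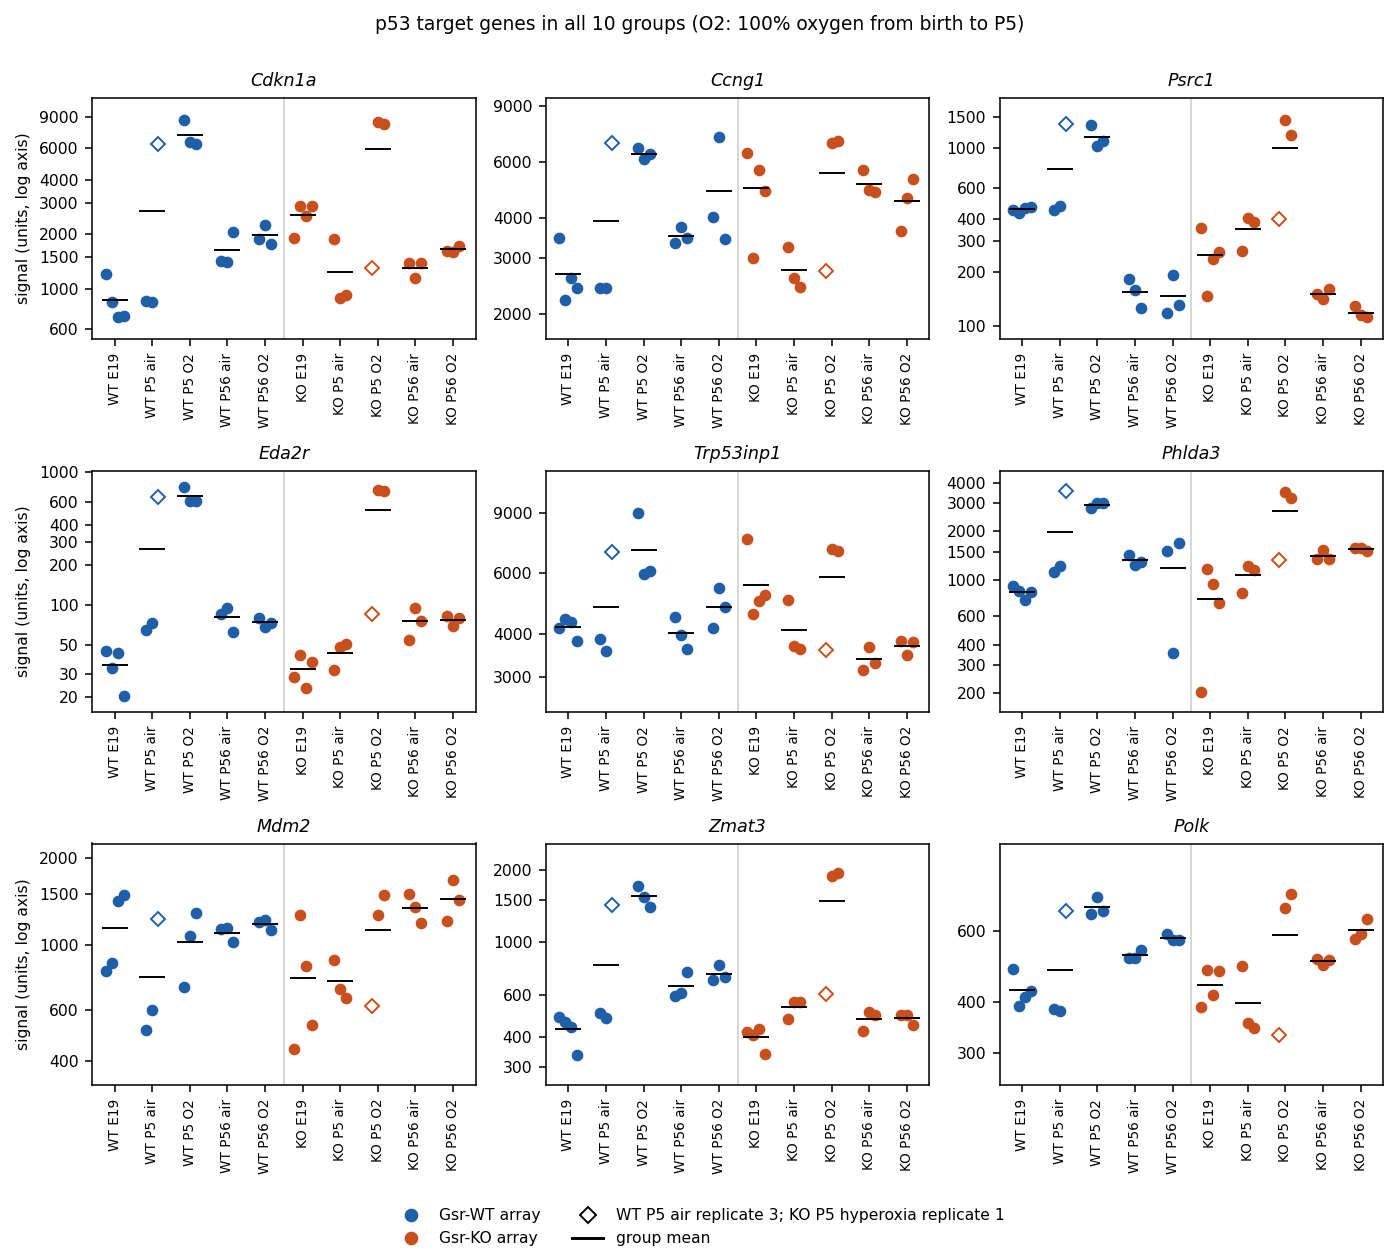
Signal of the 9 genes on all 32 arrays in the 10 groups, in units on a log axis, with room air and 100% oxygen (O2) groups of each age side by side and WT left of the grey line; bars are group means and open diamonds the 2 arrays that stand apart. Eda2r lies below 100.4 units on every array outside P5, and Psrc1 lies between 112 and 193 on the 12 P56 arrays.

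Across all 10 groups, WT P5 hyperoxia had the highest mean log2 level for 8 of the 9 genes and KO P56 hyperoxia for Mdm2. For Cdkn1a the mean was 7130 ± 1270 in WT P5 hyperoxia and 5940 ± 4030 in KO P5 hyperoxia (SD, n = 3 and 3), and the next by mean log2 level was KO E19, at 2540 ± 456 (n = 4), with WT P5 air at 2680 ± 3180 through its replicate 3. The lowest was 860 ± 237 in WT E19 (n = 4). Ordered by mean log2 level, neighbouring groups of Cdkn1a overlapped in every case except WT P56 air (1630 ± 375) over KO P56 air (1300 ± 135). Eda2r ranged from 32.5 ± 8.12 in KO E19 to 80.6 ± 16.3 in WT P56 air outside P5, at levels under the median of all values.

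Psrc1 read 452 ± 14.5 in WT E19 (n = 4), 763 ± 523 in WT P5 air and 156 ± 28.6 in WT P56 air (n = 3 each). Its 4 P56 groups, from 119 ± 9.89 to 156 ± 28.6, were the lowest of the 10, and neighbours among them overlapped. Zmat3 went from 429 ± 65.8 in WT E19 to 651 ± 86.8 in WT P56 air, and in KO from 399 ± 41.8 to 474 ± 45.0. Polk was at 428 ± 39.6 in WT E19 and 577 ± 11.1 in WT P56 hyperoxia. Phlda3 read 840 ± 68.2 in WT E19, 1970 ± 1380 in WT P5 air and 1320 ± 94.5 in WT P56 air.

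For Ccng1 the second highest mean log2 level was in KO P56 air (5130 ± 462), and its arrays lay below all those of WT P5 hyperoxia. Trp53inp1 was lowest in KO P56 air (3370 ± 270) and KO P56 hyperoxia (3690 ± 188), and all its neighbours in the order overlapped. Mdm2 overlapped between all neighbours as well, from 1440 ± 233 in KO P56 hyperoxia to 772 ± 373 in KO E19 (n = 4).

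Whether any of the genes remained raised at P56, weeks after the exposure had ended, is a comparison that the choice of genes did not use. In WT 0 of 9 passed (limma, adjusted p under 0.05), where 0% of all genes passed, and in KO 0 of 9, where 0% passed. At an unadjusted p under 0.05 there were 0 of 9 in both, against 676 and 363 of all 13345 genes. The spread in that fit is shared with the P5 groups, including the 2 arrays that stand apart. In limma on the P56 arrays alone, the lowest unadjusted p in WT was 0.0796 (Trp53inp1, adjusted p = 0.562). In KO it was 0.0533 (Polk, adjusted p = 0.999). The differences of the 9 genes had a median of 0.14 in WT and 0.09 in KO, where the median of all genes was 0.01 and 0.03. The test of KO response minus WT response gave 0 of 9, at differences from -0.59 (Ccng1) to 0.56 (Phlda3), with 0% of all genes passing and 330 at an unadjusted p under 0.05. Of the 44 other p53 targets 0 passed in WT and 0 in KO. At an unadjusted p under 0.05 there was 1 in WT, which was lower after hyperoxia, and 0 in KO. The list median was -0.09 in WT and -0.04 in KO.

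Cdkn1a read 1424, 1406 and 2064 in WT P56 air and 1895, 2258 and 1757 in WT P56 hyperoxia, and the groups overlapped. The difference was 0.28, with a 95% interval from -0.86 to 1.42 that was -0.21 to 0.77 without the 2 P5 arrays, since all groups share one estimate of the spread. In KO it read 1382, 1148 and 1383 in air and 1611, 1603 and 1728 in hyperoxia, groups that did not overlap. The difference was 0.34 (-0.80 to 1.47, and -0.15 to 0.82 without the 2 arrays). With the P56 arrays alone the interval was -0.07 to 0.64 in WT and -0.02 to 0.69 in KO. The second Cdkn1a probe set gave -0.32 in WT and 0.07 in KO.

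Polk was the one gene that read higher after hyperoxia on all arrays in both genotypes, at 515, 515 and 537 in WT air against 589, 570 and 571 in WT hyperoxia, and at 510, 494 and 509 in KO air against 575, 590 and 643 in KO hyperoxia. Neither pair of groups overlapped. The difference was 0.14 (-0.29 to 0.56) and 0.24 (-0.18 to 0.67), and neither passed (adjusted p = 0.861 and 1). With the P56 arrays alone the interval was -0.11 to 0.38 in WT and 0 to 0.49 in KO (limma, adjusted p = 0.616 and 0.999). Of all genes, 1.28% stood higher without overlap in both genotypes, or 171 genes. The other Polk probe set gave -0.22 in WT and 0.08 in KO.

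Without overlap between hyperoxia and air there was 1 of 9 genes in WT (14.6% of all genes) and 3 of 9 in KO (15.7% of all genes). The third in KO was Psrc1, which was lower, at 130, 115 and 112 in hyperoxia against 151, 142 and 161 in air. Its difference was -0.29 (-1.02 to 0.44). The 18S RNA control probe set did not overlap between these KO groups either. It read 8395, 6928 and 2612 in air and 635.7, 408.5 and 342.3 in hyperoxia. The part of this control in the KO differences at P56 was not tested. Eda2r at P56 read 80.6 ± 16.3 in WT air and 73.7 ± 5.72 in WT hyperoxia, and 74.8 ± 20.4 and 77.0 ± 6.59 in KO (SD, n = 3 per group). These are all under 100.4 units, and the interval of the KO difference ran from -1.07 to 1.17.

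In WT the largest difference at P56 was in Phlda3, at -0.43 (-1.44 to 0.59). WT P56 hyperoxia replicate 2 read 356, against 1514 and 1688 on the other arrays of its group. That array had a log2 ratio of 3′ to 5′ control probe sets of 2.84, where the other WT P56 arrays lay between 0.21 and 0.36, and it also gave the highest Ccng1 value, 7172 against 4029 and 3437. The part of this array's RNA ratio in those values was not tested. Ccng1 had a difference of 0.40 (-0.31 to 1.11) in WT and -0.19 in KO. The remaining genes, Zmat3, Mdm2 and Trp53inp1, ran from 0.02 to 0.25.

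**Figure D4:**
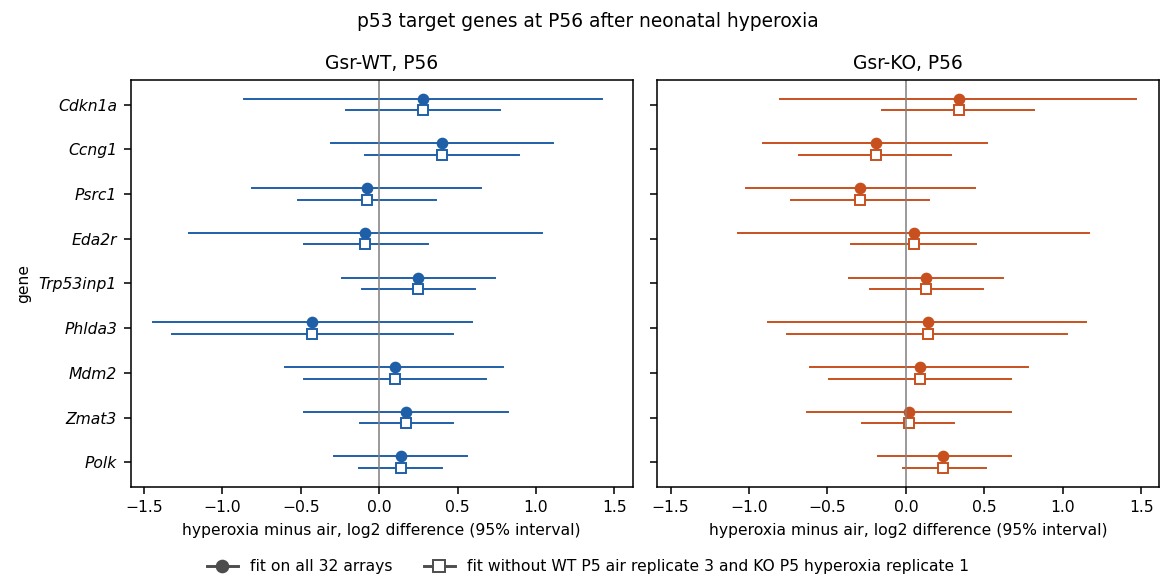
Hyperoxia minus air at P56 for each gene in Gsr-WT (left) and Gsr-KO (right), as log2 differences with 95% intervals; filled circles are the fit on all 32 arrays and open squares the fit without the 2 P5 arrays that stand apart. Every interval in both fits includes zero, as for Cdkn1a in WT (0.28, from -0.86 to 1.42).

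Between genotypes at P56, 0 of 9 passed in air (0.0599% of all genes, or 8, passed) and 0 of 9 after hyperoxia (0.03%, or 4). In either, 0 of 9 had an unadjusted p under 0.05, where 11.9% and 8.7% of all genes had one. That fit shares one estimate of the spread over all groups. With the P56 arrays alone, limma gave Zmat3 an unadjusted p of 0.00817 in air and 0.000984 after hyperoxia. Ccng1 had 0.0339 in air and Trp53inp1 0.0146 after hyperoxia. None of these passed after adjustment (adjusted p from 0.163 to 0.28). Zmat3 read lower in KO without overlap in both, at 422, 507 and 492 against 592, 611 and 751 in air and at 494, 494 and 448 against 689.5, 801 and 716 after hyperoxia. The differences were -0.43 and -0.59 (adjusted p = 0.649 and 0.6 in limma). With array weights the second passed, at -0.50 (adjusted p = 0.044). The KO P56 arrays also had a higher log2 ratio of 3′ to 5′ control probe sets, from 0.54 to 1.55, than the WT P56 arrays other than hyperoxia replicate 2, and its part in these values was not tested. Groups did not overlap in 5 of 9 genes in air, where 34.5% of all genes did not overlap, and 3 of 9 after hyperoxia, where 16.8% did not.

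At E19, before exposure, KO and WT lungs can be compared for these genes, and 1 of 9 passed, where 15.2% of all genes passed. Cdkn1a read 1201, 842, 695 and 702 in WT and 1907, 2875, 2524 and 2874 in KO. Every KO array was above every WT array. It rose by 1.55 (SE 0.48), or 2.93-fold, with a limma adjusted p of 0.0289. The exact two-sided permutation p was 0.0286, the smallest that 4 against 4 arrays can give, and 0.0857 after Benjamini-Hochberg adjustment over the 9 genes.

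The call on Cdkn1a was near its threshold. It was lost without WT replicate 2, 3 or 4 (adjusted p = 0.0516, 0.0745 and 0.0846), without KO replicate 4 (0.0574) and with array weights (0.0782). With the E19 arrays alone the limma adjusted p was 0.0424. Without the 2 P5 arrays, which were singled out on these genes, it was 3.06e-05, which is a description and not a test. The second Cdkn1a probe set gave 1.11 (adjusted p = 0.138), with KO replicate 1 at 401 against 1132 to 1887 on the other KO arrays. KO E19 replicate 1 had a log2 ratio of 3′ to 5′ control probe sets of 4.37, where the other E19 arrays lay between -0.06 and 0.57. The 18S RNA control probe set read 83.62, 1431, 20350 and 597.4 on the KO E19 arrays. On the WT E19 arrays it read from 12050 to 20580. Its part in the E19 differences was not tested.

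Psrc1 read 451, 432, 459 and 466 in WT and 357, 148, 237 and 262 in KO, without overlap. The difference was -0.84 (limma, adjusted p = 0.063), with an adjusted p of 0.185 in the E19 arrays alone. Without the 2 P5 arrays, which were singled out on these genes, it was 0.0033, which is a description and not a test. Ccng1 differed by 0.86 (adjusted p = 0.0517), with overlapping groups, while its 2 other probe sets gave -0.06 and 0.29. Trp53inp1 was above WT on every KO array (0.39, adjusted p = 0.203), and its second probe set gave -0.63. Mdm2 differed by -0.62 (adjusted p = 0.149), with KO replicate 1 at 440.5, and Phlda3 by -0.37, with KO replicate 1 at 203.5 against 724 to 1171.

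Eda2r (-0.06), Zmat3 (-0.09) and Polk (0.04) lay close to zero at E19. In all, 3 of the 9 genes did not overlap between genotypes, where 10.1% of all genes did not. The median of the 9 was -0.06, against -0.05 over all genes. This comparison moved with the scaling. The median over all genes was 0.05 after quantile normalization and 0.23 after centring on array medians, the median of the 9 was 0.17 and 0.22, and all calls split into 922 higher and 1101 lower, 1246 and 829, or 2489 and 537.

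**Figure D5:**
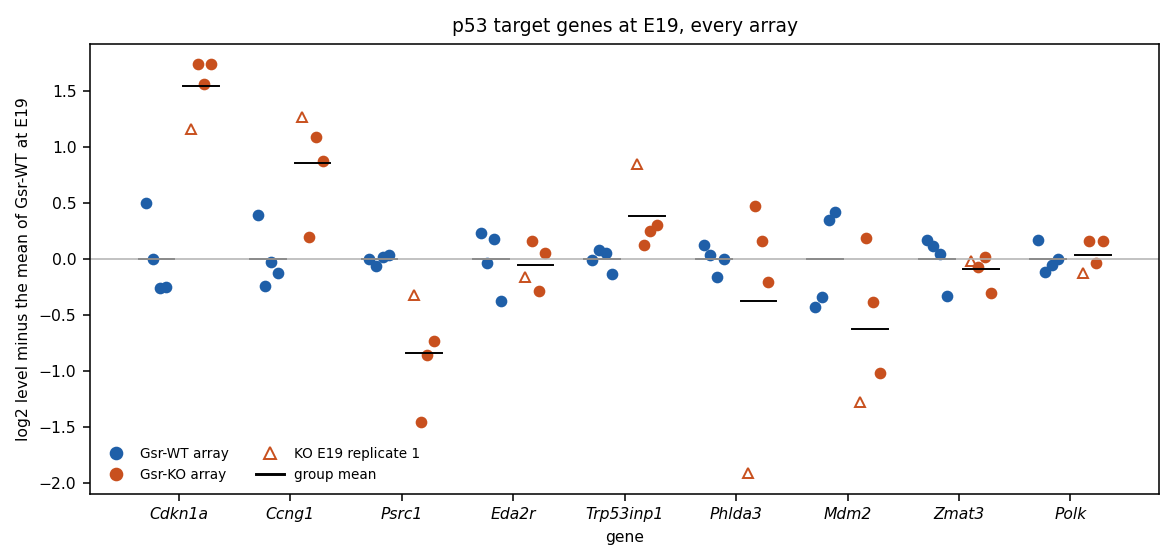
Log2 level of each gene on the 8 E19 arrays, minus the mean of Gsr-WT at E19; points are arrays, the open triangle is KO E19 replicate 1 and bars are group means. Cdkn1a lies higher and Psrc1 lower on every KO array, and the triangle stands far from the other KO arrays in Phlda3.

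Of the 44 other p53 targets 10 passed at E19, 5 higher and 5 lower, where 15.2% of all genes passed. The list median was -0.04, which was 0.05 after quantile normalization and 0.24 after centring. The largest changes were in Ckap2, a spindle protein that fell by 1.29, Triap1, an inhibitor of apoptosis that fell by 1.23, and Bid, a pro-apoptotic Bcl2 relative that fell by 1.17. Sulf2, a heparan sulfatase, rose by 1.17, and Pmaip1 (Noxa), another pro-apoptotic Bcl2 relative, rose by 0.98. Plk3, a stress kinase, fell by 0.94 (adjusted p = 0.0454). The mean of Pmaip1 in WT was 46.4 units, and those of Bid and Plk3 in KO were 87.6 and 67.7. These lie under 100.4 units, so the sizes of these changes depend in part on the offset. Of the 23 p53 regulators Dyrk2 rose (0.66) and Chek1 fell by 0.87, 2 genes named after their values were seen.

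The genes repressed through p21 and DREAM passed as lower in KO at E19 in 22 of 24 cases and as higher in 0, where 1101 and 922 of all 13345 genes did, and had a median of -1.24. Birc5 (survivin) fell by 1.77, Aurkb, a mitotic kinase, by 1.66 and Ccna2, cyclin A2, by 1.65. Under quantile normalization 23 passed as lower and after centring 20. Of 18 NRF2 targets 4 passed as lower and 0 as higher, where 15.2% of all genes passed. Among these 4, Gsta3, Osgin1 and Blvrb fell by 1.98, 1.65 and 1.39.

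Of the 13 lung markers 4 passed as higher in KO at E19 and 0 as lower, with a median of 0.13. Markers of other tissues also differed at E19. Of 12 striated muscle markers 2 passed as higher and 0 as lower. All 10 measured liver markers passed as lower in KO, with a median of -4.54, as did 4 of 5 erythroid, 6 of 11 squamous and 3 of 9 neutrophil markers. Their summed liver signal ran from 1939 to 196400 units in WT and from 547.5 to 7768 in KO. WT E19 replicate 1 had a liver level of -0.38, within the KO range of -1.73 to 1.07, and on it Cdkn1a read 1201. Its squamous and muscle levels, at 2.35 and 1.54, were above those of all KO E19 arrays, and it correlated at 0.974 with KO P5 air replicate 1 and at 0.882 to 0.937 with its own group. The part of lung content and of the other tissues in the E19 differences over all arrays was not tested.

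The genes whose pattern over the 32 arrays was most like the mean of the 9 were Ddit4l, an mTOR inhibitor of the REDD family, with a Pearson r of 0.93, Aen with 0.87, Hmox1 with 0.80, Exoc4, an exocyst subunit, with 0.80, and Dglucy with 0.79. These are measures of likeness over arrays that fall into a high and a low set at P5, and carry no test. Ddit4l read 229.7, 172 and 466 in WT P5 air and 791, 558 and 519 in WT hyperoxia, and 160.5, 125 and 105 in KO air and 159.5, 642 and 546 in KO hyperoxia. Aen read 508.5, 588 and 1173 in WT air and 1112, 1104 and 1026 in WT hyperoxia, and 388, 551 and 608 in KO air and 543.5, 1455 and 1253 in KO hyperoxia. Genes named here were picked for likeness over arrays that include both arrays that stand apart. Their values on those arrays follow from that choice and are no separate observation.

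Among themselves the 9 genes were compared by correlation. The r of a gene with the mean of the other 8 lay between 0.80 (Mdm2) and 0.99 (Zmat3 and Ccng1) over the 12 P5 arrays. Over the other 20 arrays it lay between -0.94 (Psrc1) and 0.84 (Polk), and was -0.02 for Cdkn1a. These r describe the same arrays that chose the genes at P5.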

How the data were processed

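Lung RNA was hybridised to Affymetrix Mouse 430_2 arrays. The deposited values are intensities that the authors made with MAS5, per the submitters' processing notes, and the 2% trimmed mean of every array was 500. The 10 genes and all lists were chosen with earlier results of these data known. Of 45101 probe sets 34945 had 1 gene symbol, 932 several, 9160 none and 64 were controls. Values were taken as log2(value + 26.3), the offset being the 25th percentile, and probe sets were kept if 3 or more arrays exceeded 100.4, the overall median. For each gene the probe set with the highest mean log2 level was used. limma 3.58.1 in R 4.3.3 fitted 1 mean per group to all 32 arrays (22 residual degrees of freedom, variance trend), and p-values were Benjamini-Hochberg adjusted over 13345 genes with a threshold of 0.05. Permutation tests were exact and two-sided. Genes named beside the 10 were the most changed that passed in each list, up to 6 for other p53 targets and regulators and up to 3 for NRF2 and DREAM lists, the 3 highest and 2 lowest other targets or regulators at P5, and the 5 closest in pattern. Array medians ran from 68.4 to 124.6, and precision is limited by how few arrays there are. Arrays are labelled biological replicates. Replicate numbers did not pair the samples: of 22 same-numbered pairs 6 deviated together (correlation over 0.1), so no block was used. Alternatives were other offsets, filters, scalings, array weights, no trend, a replicate block, each age alone, second probe sets and left-out arrays.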

Additional observations from a re-analysis of the deposited data

How the results depend on the processing

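At E19 the 1 of the 9 p53 target genes that passed became 3 after centring on array medians (Ccng1, Cdkn1a and Trp53inp1), where 2489 of all genes passed as higher and 537 as lower. It became 3 without the 2 P5 arrays that stand apart (Ccng1, Cdkn1a and Psrc1), a description since these genes singled them out. With the E19 arrays alone Cdkn1a passed (limma, adjusted p = 0.0424), while Ccng1 (0.195) and Psrc1 (0.185) did not. With array weights 0 passed, and the count ranged from 0 to 3 when single arrays were left out. With a replicate block, Cdkn1a at E19 was 1.55 (limma, adjusted p = 0.0355), and the block changed no call on the 9 genes. Between genotypes at P56 after hyperoxia, array weights gave 1 gene (Zmat3) in place of 0. Of the other p53 targets at P5, array weights gave 20 in WT and 23 in KO in place of 0, omission of the 2 arrays gave 2 and 5, and a fit with no variance trend gave 1 in KO (Lif). Single arrays left out gave 0 to 1 in WT and 0 to 3 in KO. No value that passed changed sign, but second probe sets turned the sign of some that had not passed, among them Cdkn1a and Polk in WT at P56 (-0.32 and -0.22) and Ccng1 and Trp53inp1 at E19 (-0.06 and -0.63). The median of the 9 genes at E19 went from -0.06 to 0.17 with quantile normalization and 0.22 with centring. Over all genes, the calls ranged over the alternatives from 0 to 3223 in WT and 0 to 2680 in KO at P5 (1 and 45 in the reported fit), from 0 to 888 and 0 to 459 at P56 (0 and 0), from 40 to 3026 at E19 (2023), and between genotypes at P56 from 1 to 2691 in air (8), 3 to 4717 after hyperoxia (4) and 0 to 329 for the difference of responses (0). The cause of these changes was not tested. Few arrays per group limit what could pass.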
